A study of Mus musculus with 16 samples.

Results

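Glycolysis and hypoxia response genes were followed as a group of 33 genes, chosen by symbol from the 26411 genes of the deposited count files. They comprised 4 carriers of glucose and lactate, 19 glycolytic enzymes and lactate dehydrogenases, and 10 genes of the hypoxia-inducible factor (HIF) system and its response. All 33 passed the filter on low counts, as did 15679 genes in all. The RNA came from 16 whole mouse embryos at embryonic day (E) 9.5, 4 of each genotype. *Kat6a* and *Kat6b* encode related histone acetyltransferases. *Kat6a+/+Kat6b+/+* embryos were wild type, and *Kat6a-/-Kat6b+/+* embryos carried 2 copies of a *Kat6a* allele without exons 5 to 9. *Kat6a+/+Tg(Kat6b)* embryos had intact *Kat6a* and a heterozygous transgene, a bacterial artificial chromosome clone with all coding exons of *Kat6b*, and *Kat6a-/-Tg(Kat6b)* embryos combined the deletion and the transgene. All embryos were on a mixed FVB and BALB/c background, and every cell type of the embryo contributed RNA, so fewer cells of a type and less RNA per cell cannot be told apart in any value given here.

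Glycolysis splits glucose into pyruvate, and lactate dehydrogenase turns pyruvate into lactate. When oxygen falls, the prolyl hydroxylases no longer mark the HIF alpha subunit for destruction, and HIF then raises transcription of glucose carriers, most glycolytic enzymes, and genes of angiogenesis, mitophagy and collagen processing. At mid-gestation, mouse embryos are known to rely strongly on glycolysis.

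The total count per embryo ranged from 14407277 to 45665680. Counts on *Kat6b* checked the transgene, since they lay between 42.6 and 51.0 CPM (counts scaled to library size and TMM factor) in the 8 embryos without it and between 155 and 227 in the 8 with it. Counts on the whole *Kat6a* gene did not check the deletion, as they were 176 to 211 CPM in wild-type and 189 to 218 CPM in *Kat6a-/-Kat6b+/+* embryos. The genotypes were unevenly spread over litter and sex. Wild-type replicates 1 and 2 were males of litters 801 and 803, which held all *Kat6a-/-Kat6b+/+* embryos, and replicates 3 and 4 were females of litters 2597 and 2598, which held all *Kat6a+/+Tg(Kat6b)* embryos. *Kat6a-/-Kat6b+/+* replicates 1 and 2 were females of litter 801, and replicates 3 and 4 were males of litter 803. The *Kat6a-/-Tg(Kat6b)* embryos came from litters 483 and 498, which held no other genotype, so for them genotype and litter cannot be told apart. All 40 markers of erythroid cells, heart, neural tube, somites and endothelium passed the filter, while 6 of 8 trophoblast and decidua markers did not.

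Promoter sequences are shown for the members that co-varied most strongly (*Pgk1* and *Eno1*). The pair with the most matches to the HIF core motif (*Ldha* and *Bnip3*) is shown as well. *Ldhb* is shown as part of the pair with the lowest correlation, whose other member, *Slc2a3*, had no promoter entry. Each run is the 250 bases before the first start site listed by RefSeq on build GRCm38.p6, 5′ to 3′, with ACGTG or GCGTG on either strand in capitals. Overlapping matches were counted separately.
Pgk1: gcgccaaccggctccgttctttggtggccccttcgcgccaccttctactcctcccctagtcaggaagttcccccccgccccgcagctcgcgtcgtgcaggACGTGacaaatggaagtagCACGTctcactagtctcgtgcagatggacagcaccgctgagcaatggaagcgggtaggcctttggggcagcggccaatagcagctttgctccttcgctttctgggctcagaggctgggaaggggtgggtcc
Eno1: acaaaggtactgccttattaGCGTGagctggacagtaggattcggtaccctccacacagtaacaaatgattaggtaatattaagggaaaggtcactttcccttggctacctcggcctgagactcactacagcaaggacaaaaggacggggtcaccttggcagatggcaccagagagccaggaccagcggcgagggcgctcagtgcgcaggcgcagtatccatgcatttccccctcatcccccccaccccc
Ldha: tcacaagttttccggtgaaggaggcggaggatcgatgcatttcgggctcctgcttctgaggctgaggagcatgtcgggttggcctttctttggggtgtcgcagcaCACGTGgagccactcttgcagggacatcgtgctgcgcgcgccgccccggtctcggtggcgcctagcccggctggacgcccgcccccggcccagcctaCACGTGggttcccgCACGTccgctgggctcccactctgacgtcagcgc
Bnip3: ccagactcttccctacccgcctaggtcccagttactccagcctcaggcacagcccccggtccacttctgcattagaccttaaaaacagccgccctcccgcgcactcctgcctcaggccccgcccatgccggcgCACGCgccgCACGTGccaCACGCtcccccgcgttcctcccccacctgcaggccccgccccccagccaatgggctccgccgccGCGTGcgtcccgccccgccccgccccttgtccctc
Ldhb: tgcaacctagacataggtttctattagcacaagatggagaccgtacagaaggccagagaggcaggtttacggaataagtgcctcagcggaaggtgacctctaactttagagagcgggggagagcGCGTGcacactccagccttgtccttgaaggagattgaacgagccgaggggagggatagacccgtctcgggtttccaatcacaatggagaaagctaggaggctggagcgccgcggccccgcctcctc

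These windows lie at chrX:106186850-106187099 for *Pgk1*, chr4:150236458-150236707 for *Eno1* and chr7:46845554-46845803 for *Ldha*, all on the plus strand. On the minus strand they lie at chr7:138909507-138909756 for *Bnip3* and chr6:142507958-142508207 for *Ldhb*. Of the 31 members with a RefSeq promoter, 24 held at least 1 match in the first listed window (77.4%), against 38.6% of 27025 genes. At least 2 matches were present in 17 of the 31 members and in 16.8% of all genes. The 27025 genes were not limited to those that passed the filter on low counts, as all members did, so the 2 sets are unlike. A match describes letters and not a bound site, and the members were chosen partly as known hypoxia response genes.

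The levels of the members spanned a wide range. Per length of the deposited gene models, the highest mean in wild-type embryos was 871 RPKM for *Ldha*, which makes lactate from pyruvate, followed by 686 RPKM for *Eno1b* and 673 RPKM for *Pkm*, the pyruvate kinase of embryonic cells. *Tpi1*, the triose phosphate isomerase, was at 388 RPKM. The lowest were 0.97 RPKM for *Aldoc*, the aldolase of brain, and 1.24 RPKM for *Eno2*, the neuronal enolase. Some of these levels are uncertain because copies of the transcript exist elsewhere in the genome. At 98% identity or more over at least 50 bases, copies covered 96.4% of the *Pgam1* transcript, 95.7% of *Pgk1*, 92.7% of *Eno1b*, 88.2% of *Gapdh*, 75.7% of *Eno1*, 48.5% of *Gpi1* and 34.0% of *Bnip3*. *Gapdh*, usually among the most abundant transcripts, was counted at only 37.3 RPKM in wild-type embryos, and *Eno1*, the ubiquitous enolase, at 171 RPKM, below *Eno1b*. Exons of other genes overlapped 86.1% of the *Aldoa* transcript, 81.5% of *Gapdh*, 78.6% of *Ankrd37*, 52.4% of *Slc16a3*, 42.5% of *Pfkp*, 38.4% of *Pkm*, 29.4% of *Ldha*, 24.2% of *Pfkl*, 19.3% of *Tpi1*, 15.9% each of *Eno3* and *Pgam1*, and 13.8% of *Bnip3*, with at most 8.0% for the others. Most of these genes lie on the opposite strand, the library kit does not mark strand, and the strand setting of the counting was not given in the sources used here.

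Over the 16 embryos, member genes varied by a median coefficient of variation of 9.58%, against 9.18% for all tested genes and 6.44% for the 10068 of them with a mean of at least 10 CPM, a level that 30 of the 33 members reached. The steadiest were *Pfkm*, a phosphofructokinase (3.43%), and *Hif1a*, the oxygen-regulated subunit itself (3.49%). The most variable were *Aldoc* (32.1%), *Slc2a3* (26.7%) and *Ddit4* (22.0%), an inhibitor of mTORC1 signalling. *Kat6a-/-Kat6b+/+* replicate 1 had the highest value of all embryos for 24 of the 33 members and lay above the mean for 29.

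**Figure D1:**
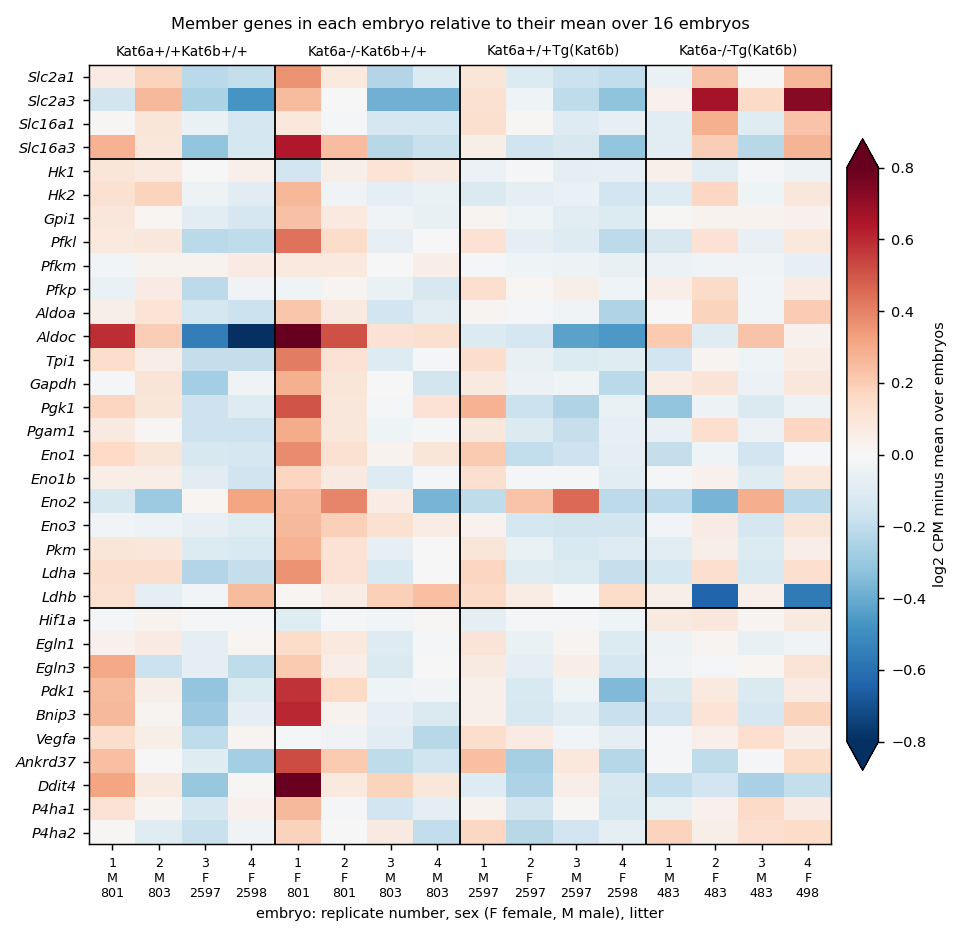
Log2 CPM of each member (rows: carriers, enzymes and HIF response genes from top to bottom) in each embryo (columns, by genotype) minus the member's mean over the 16 embryos; colours saturate beyond the ends of the bar. The first *Kat6a-/-Kat6b+/+* embryo stands above the mean for 29 of 33 members, and *Slc2a3* and *Ldhb* move in opposite directions in replicates 2 and 4 of *Kat6a-/-Tg(Kat6b)*.

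Members moved together across single embryos. The median Pearson r of log2 CPM over the 528 pairs of members was 0.54 (quartiles 0.16 and 0.74), and over all 122907681 pairs of tested genes it was -0.002 (quartiles -0.22 and 0.218). An r of at least 0.8 was reached by 16.9% of member pairs and by 0.197% of all pairs. This background was not matched for level. A mean of at least 10 CPM was reached by 30 of the 33 members and by 10068 of the 15679 tested genes. These are descriptions over 16 embryos, which share genotype, litter and library preparation, and members are not independent of each other.

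The closest pair, *Pgk1* (phosphoglycerate kinase) and *Eno1*, had r = 0.97 and rho = 0.97 over 16 embryos, and r = 0.95 without the 2 embryos farthest from the median of *Pgk1*. Next came *Pkm* and *Ldha* (r = 0.97, rho = 0.88, r = 0.96 without 2 embryos), and *Pfkl*, the liver-type phosphofructokinase, with *Ldha* (r = 0.97, rho = 0.90, r = 0.96 without 2 embryos). *Pfkl* with *Tpi1* and *Pfkl* with *Pkm* had r = 0.96 each, and 0.91 and 0.93 without 2 embryos. These pairs were picked as the 5 highest. With genotype means removed, the r of *Pgk1* and *Eno1* over the 16 embryos was still 0.97. This r pools the deviations from the genotype means over all genotypes and is not an r within any single one. Both genes were highest in *Kat6a-/-Kat6b+/+* replicate 1.

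Carriers correlated among themselves with a median r of 0.84 over 6 pairs, enzymes with 0.56 over 171 pairs and HIF response genes with 0.50 over 45 pairs. Across the groups the medians were 0.62 between carriers and enzymes, 0.47 between carriers and HIF response genes and 0.50 between enzymes and HIF response genes. Not all members joined in. *Hk1* (the constitutive hexokinase), *Eno2*, *Ldhb* (the heart-type lactate dehydrogenase subunit) and *Hif1a* had median r values with the other 32 members of -0.26, -0.08, -0.23 and -0.19. The 3 lowest pairs, picked as such, all held *Ldhb*. They were *Slc2a3* (r = -0.87, rho = -0.76), *Slc16a1*, the main lactate carrier (r = -0.81, rho = -0.60), and *Aldoa*, the aldolase of muscle and most embryonic cells (r = -0.67, rho = -0.62). Without the 2 embryos farthest from the median of the first gene these were -0.67, -0.43 and -0.78, and for both carriers the embryos left out were *Kat6a-/-Tg(Kat6b)* replicates 2 and 4.

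**Figure D2:**
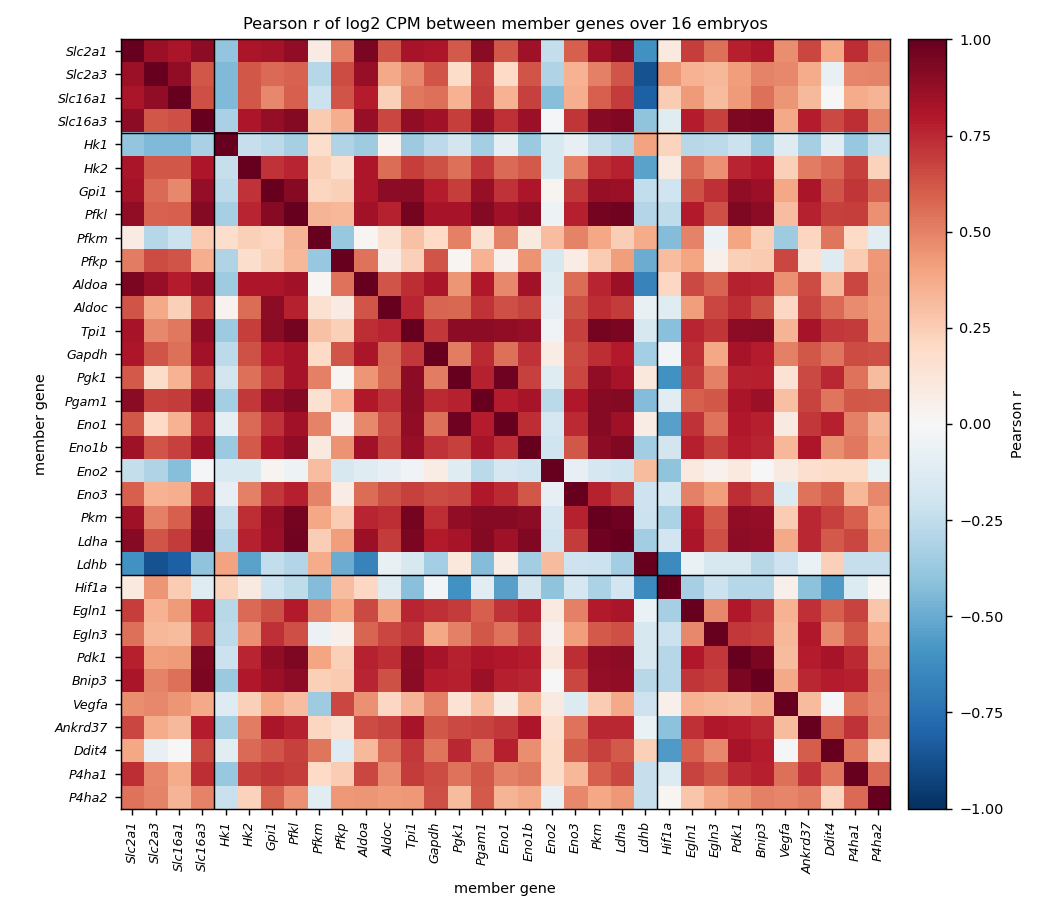
Pearson r of log2 CPM over 16 embryos for each pair of the 33 members, with black lines between carriers, enzymes and HIF response genes. Most of the 528 squares are red (median r 0.54), and the rows of *Hk1*, *Eno2*, *Ldhb* and *Hif1a* are mostly blue.

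The embryos behind this pattern were read from sums over the enzymes. The 19 enzymes and lactate dehydrogenases summed to 10440.6 CPM in *Kat6a-/-Kat6b+/+* replicate 1 and to between 7681 and 9230 CPM in the other 15 embryos. In wild-type embryos the sums were 9119.5 and 9018 CPM in replicates 1 and 2, the males of litters 801 and 803, and 7699 and 7681 CPM in replicates 3 and 4, the females of the other 2 litters. Erythroid markers moved in the opposite direction in some of them. All 10 passed the filter, and their summed CPM was lowest in *Kat6a-/-Kat6b+/+* replicate 1 (3036), against 3587 to 5641 in wild-type, 4922 to 6189 in *Kat6a+/+Tg(Kat6b)* and 3837 to 4636 in *Kat6a-/-Tg(Kat6b)* embryos. Over 16 embryos the log2 sum of erythroid markers and the members' median deviation had r = -0.58 and rho = -0.44, and r = -0.19 without the 2 embryos farthest in the erythroid sum. The part of erythroid content in the co-variation was not tested. Leaving out *Kat6a-/-Kat6b+/+* replicate 1 gave a median r of the members of 0.46, and removing genotype, sex and litter gave 0.58.

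The first comparison asked what loss of *Kat6a* did to these genes. Members were called at an edgeR FDR (the quasi-likelihood p adjusted over all tested genes by the Benjamini-Hochberg method) below 0.05, from a fit with genotype and 2 surrogate variables. In *Kat6a-/-Kat6b+/+* against *Kat6a+/+Kat6b+/+* embryos 1 of 33 members was called, and 1.88% of all genes were. It was *Eno3*, the enolase of muscle. *Eno3* was at 86.7, 82.6, 78.9 and 75.3 CPM in the 4 *Kat6a-/-Kat6b+/+* embryos and at 71.3, 70.3, 69.3 and 67.7 CPM in the 4 wild-type embryos. The groups did not overlap, and *Eno3* rose by a log2 fold change of 0.21 (SE 0.04, edgeR FDR = 0.0178). Without surrogate variables the log2 fold change was 0.21 and the edgeR FDR 0.0753, and with a litter block and no surrogate variables, over 12 embryos, they were 0.19 and 0.415.

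At an unadjusted edgeR p below 0.05 there were 6 members, all enzymes and all higher (18.2%), beside 15.2% of all genes in either direction. They were *Eno3*, *Pgam1* (phosphoglycerate mutase), *Pfkl*, *Aldoc*, *Pkm* and *Eno1*. Of the 33 members, 26 had a log2 fold change above 0, with a median of 0.08 against 0.003 over all genes tested. Without surrogate variables the members' median was 0.09, and with a litter block, also without them and over only 12 embryos, it was -0.02. Some differences of similar or larger size did not pass the threshold. *Aldoc* had a log2 difference of 0.51 (SE 0.22, edgeR FDR = 0.265), at a level of 1.37 to 5.37 CPM, and *Ddit4* one of 0.25 (SE 0.16, edgeR FDR = 0.494). *Pdk1*, the kinase that shuts pyruvate out of the mitochondrial cycle, had 0.18 (edgeR FDR = 0.519) and *Pfkl* had 0.18 (edgeR FDR = 0.18). For *Ddit4* the *Kat6a-/-Kat6b+/+* embryos were at 74.6, 45.5, 48.8 and 45.9 CPM and the wild-type embryos at 53.8, 45.5, 34.9 and 43.4 CPM, so replicate 1 alone stood above all wild-type embryos. Macrophage markers differed in the same comparison, with 5 of 6 tested called higher. The 7 listed summed to 8.63 to 18.5 CPM against 3.09 to 8.89 CPM. Their part in the members' values was not tested.

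The transgene on its own was followed by few differences. In *Kat6a+/+Tg(Kat6b)* against *Kat6a+/+Kat6b+/+* embryos no member was called, with 0.14% of all genes called, and DESeq2 also called no member. At an unadjusted p below 0.05 there were 2 members (6.06%, background 11.5%), both hexokinases and both lower. *Hk2*, the hexokinase that HIF induces, had a log2 difference of -0.12 (SE 0.05, edgeR FDR = 0.329) and *Hk1* one of -0.11 (SE 0.05, edgeR FDR = 0.343). *Slc2a3*, *Pfkp* and *Ddit4* had differences of 0.12, 0.12 and -0.11, with edgeR FDR values of 0.569, 0.529 and 0.877. The median over the members was -0.001, against 0.002 over all genes.

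The third comparison asked how far embryos that lacked *Kat6a* but carried the transgene differed from wild type. In *Kat6a-/-Tg(Kat6b)* against *Kat6a+/+Kat6b+/+* embryos no member was called by edgeR (background 0.67%) and 1 was by DESeq2, the neuronal and trophoblast glucose carrier *Slc2a3*. At an unadjusted p below 0.05 there were 5 members (15.2%, background 12.7%). *Slc2a3* was at 266, 412, 289 and 431 CPM in the *Kat6a-/-Tg(Kat6b)* group and at 234, 311, 218 and 187 CPM in wild type. Replicates 2 and 4, both females, lay above every other embryo of the series, while the males overlapped the wild-type range. The log2 difference was 0.33 (SE 0.07, edgeR FDR = 0.0685), and 0.56 without surrogate variables. *Eno1*, *Pkm*, *Pgk1* and *Ldhb* were on the lower side, with differences of -0.20, -0.10, -0.25 and -0.23 and edgeR FDR values of 0.235, 0.294, 0.341 and 0.354. *Ddit4* had -0.31 (edgeR FDR = 0.486). These differences are from the fit with surrogate variables. Mean levels, without them, were 320 against 343 CPM in wild type for *Eno1* and 2655 against 2681 CPM for *Pkm*. They were 125 against 137 CPM for *Pgk1* and 56.9 against 70.9 CPM for *Ldhb*. The members' median log2 fold change was -0.030, and without surrogate variables it changed sign to 0.036. Tissue markers also differed in this comparison. All 8 neural markers lay below 0 and 1 was called lower (edgeR FDR = 0.0098). Of 7 somite markers 1 was called lower (edgeR FDR = 0.0239), with 3 above 0 and 4 below. No marker of the other lists was called. The part of these tissues in the members' values was not tested.

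The most calls fell in *Kat6a-/-Tg(Kat6b)* against *Kat6a-/-Kat6b+/+* embryos, which differ in the transgene on a *Kat6a*-deleted background and also in litter. There 6 of 33 members (18.2%) were called, and 7.14% of all genes were. Of these, 5 enzymes fell (3.74% of all genes were called lower) and 1 carrier rose (3.39% called higher). At an unadjusted p below 0.05 there were 17 members (51.5%, background 23.2%), 15 of them lower. The median log2 fold change was -0.10 over the members and -0.005 over all genes, and 26 members lay below 0.

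*Pgk1*, which makes the first ATP of the pathway, was at 109, 132, 126 and 132 CPM in the *Kat6a-/-Tg(Kat6b)* group and at 192, 145, 135 and 147 CPM in *Kat6a-/-Kat6b+/+* embryos. The ranges did not overlap, but the highest value belonged to replicate 1. *Pgk1* fell by 0.41 on the log2 scale (SE 0.10, edgeR FDR = 0.0321). *Eno1* was at 300.1, 334, 307 and 338 CPM against 445, 372, 349 and 366 CPM, again without overlap. It fell by 0.34 (SE 0.07, edgeR FDR = 0.00916). Because of the copies named above, part of the counts of both may belong to other loci.

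*Pkm* was at 2532, 2788, 2503 and 2798 CPM against 3266, 2916, 2582 and 2706 CPM. Here the ranges overlapped, and the fall of 0.18 (SE 0.04, edgeR FDR = 0.00753) came from the fit with surrogate variables, as it was 0.11 without them (edgeR FDR = 0.45). *Eno3* was at 71.3, 75.9, 65.8 and 77.3 CPM against 86.7, 82.6, 78.9 and 75.3 CPM, with overlap, and fell by 0.19 (SE 0.05, edgeR FDR = 0.0145). *Pfkl* was at 407, 483, 428 and 472 CPM against 601, 493, 426 and 445 CPM. It fell by 0.23 (SE 0.06, edgeR FDR = 0.0451), and its ranges overlapped. The carrier *Slc2a3*, at 199 to 310 CPM in *Kat6a-/-Kat6b+/+* embryos, rose by 0.33 (SE 0.07, edgeR FDR = 0.0179). Its ranges overlapped. The *Kat6a-/-Tg(Kat6b)* males, at 266 and 289 CPM, lay within that range and only the females, at 412 and 431 CPM, above it.

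*Ddit4* and *Aldoc* had the largest differences but were not called. *Ddit4* was at 37.7, 38.9, 36.1 and 37.8 CPM in *Kat6a-/-Tg(Kat6b)* embryos, below every *Kat6a-/-Kat6b+/+* embryo, with a log2 difference of -0.56 (SE 0.16, edgeR FDR = 0.0621). *Aldoc* had -0.49 (SE 0.21, edgeR FDR = 0.171). All 6 calls depended on the surrogate variables. None was made with no or 1 surrogate variable, and without any the edgeR FDR was 0.111 for *Eno3*, 0.155 for *Eno1*, 0.173 for *Slc2a3*, 0.206 for *Pgk1*, 0.45 for *Pkm* and 0.543 for *Pfkl*. The second surrogate variable had r = -0.73 and rho = -0.81 with the members' median deviation over 16 embryos, and r = -0.82 without the 2 embryos farthest from its median, so it carried much of the variation that the members share. Leaving out each of the 16 embryos in turn, the call of *Eno1* was lost in 0 fits, *Pkm* in 1, *Eno3* and *Slc2a3* in 2 each, *Pgk1* in 7 and *Pfkl* in 12. Without *Kat6a-/-Kat6b+/+* replicate 1 the calls of *Slc2a3* and *Eno1* remained, the log2 difference of *Pgk1* was -0.27 and that of *Pfkl* -0.10, and no call was made when *Kat6a-/-Tg(Kat6b)* replicates 2 and 4 were also left out, a choice made after seeing the data.

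Markers of other tissues moved in the same comparison. The 8 listed yolk sac and liver bud markers summed to 41.1 to 53.4 CPM in *Kat6a-/-Tg(Kat6b)* and 10.0 to 18.0 CPM in *Kat6a-/-Kat6b+/+* embryos, though none of the 6 tested was called. Much of this was *Afp*, at 26.3 to 39.5 CPM against 2.32 to 8.60 CPM. Of 8 neural markers *Tubb3*, *Nes* and *Elavl3* were called lower (log2 -0.36, -0.19 and -0.29, edgeR FDR = 0.00049, 0.0103 and 0.0267), with summed levels of 778 to 926 CPM against 911 to 1021 CPM. The low values lay mostly in the *Kat6a-/-Tg(Kat6b)* females, replicates 2 and 4. The sums were 780 and 778 CPM in these females and 903 and 926 CPM in the males. *Tubb3* was at 68.7 and 69.8 CPM in the females and at 103 and 105 CPM in the males. The list did not move as a whole, as 4 of the 8 had a log2 fold change above 0 and 4 below. Of 7 somite markers *Meox1* was called lower (-0.21), of 6 endothelial markers *Tek* higher (0.30), of 6 macrophage markers *Mrc1* lower (-0.90) and of the 2 tested decidua and trophoblast markers *Dcn* higher (0.92). Somite markers were split, with 3 above 0 and 4 below, and so were endothelial markers, with 3 above and 3 below. All 6 macrophage markers lay below 0. The part of these tissues in the values of the glycolytic genes was not tested.

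**Figure D3:**
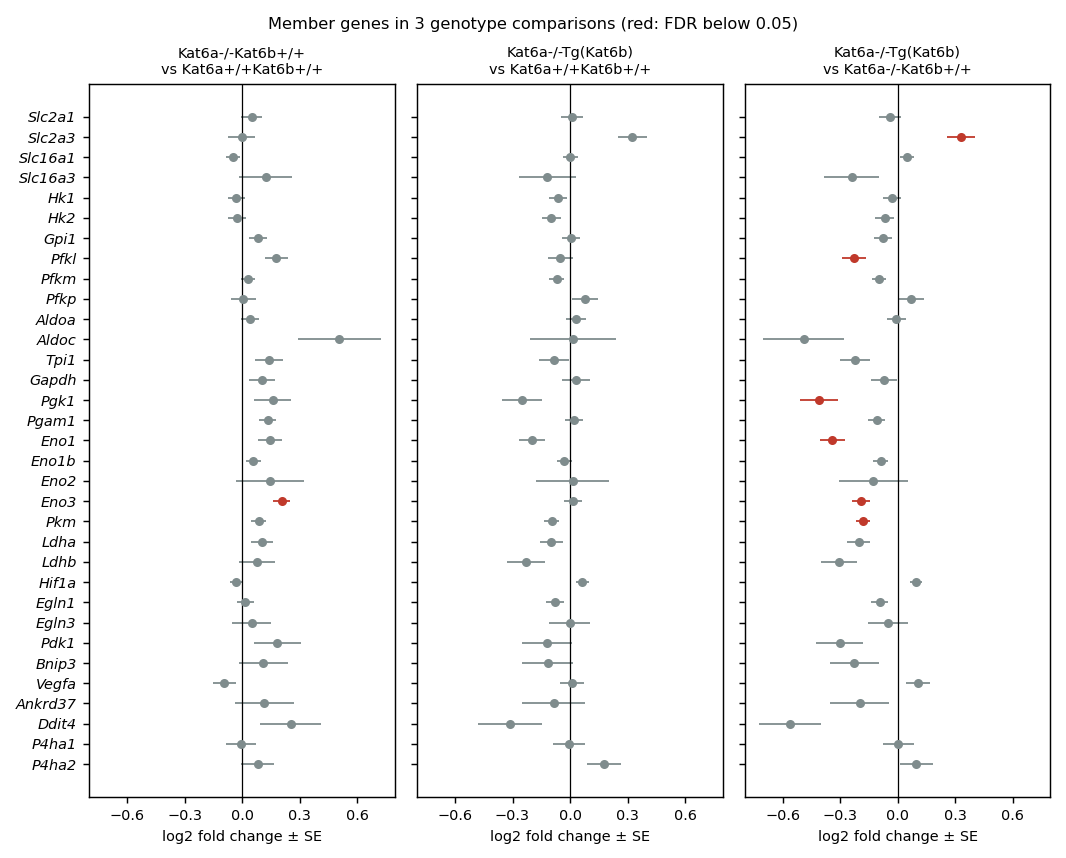
Log2 fold change with SE of each member in 3 comparisons, from the edgeR fit with 2 surrogate variables; red points have an FDR below 0.05. 1 member is red in the left panel, none in the middle and 6 in the right, where 26 of 33 points lie below 0.

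In *Kat6a-/-Tg(Kat6b)* against *Kat6a+/+Tg(Kat6b)* embryos, which both carry the transgene, no member was called (background 3.41%) by edgeR or by DESeq2, and 7 had an unadjusted p below 0.05 (21.2%, background 18.9%). The largest differences were those of *Pgk1* (-0.25, edgeR FDR = 0.229), *Ldhb* (-0.23, edgeR FDR = 0.249), *Ddit4* (-0.21, edgeR FDR = 0.582), *Slc2a3* (0.21, edgeR FDR = 0.163) and *Eno1* (-0.18, edgeR FDR = 0.183). The members' median was -0.042, and without surrogate variables it changed sign to 0.072.

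Whether the effect of *Kat6a* loss differed with the transgene was tested as an interaction. No member was called by edgeR (background 0.153%), and DESeq2 called *Eno1*. At an unadjusted p below 0.05 there were 10 members (30.3%, background 14.6%). Of these, 9 were lower, meaning that in this fit the effect of the deletion was less positive with the transgene, and 7.09% of all genes were lower at that p. The shift depended on the surrogate variables. The members' median was -0.134 in this fit, and -0.035 with no or 1 surrogate variable. The sizes were -0.46 for *Ddit4* (edgeR FDR = 0.393), -0.41 for *Pgk1* (0.233), -0.39 for *Aldoc* (0.608), -0.32 for *Eno1* (0.167) and -0.30 for *Ldhb* (0.331), each FDR from edgeR. The comparisons share their control embryos, so they are not separate evidence.

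Sex was compared because *Pgk1* is on the X chromosome (chrX:105230706-105247305, GRCm39, plus strand). Over 8 female and 8 male embryos, with genotype in the model, no member was called (background 0.0765%), DESeq2 called none, and no member had an unadjusted p below 0.05 (background 4.6%). *Pgk1* had a log2 difference, female minus male, of 0.002 (SE 0.10). The largest were *Ldhb* (-0.18), *Aldoc* (-0.17), *Slc2a3* (0.14), *Slc16a3* (0.11) and *Eno2* (0.10), with edgeR FDR values of 0.998 each. This fit held no litter term. In wild-type and in *Kat6a-/-Kat6b+/+* embryos the males and females came from different litters, so there sex and litter cannot be told apart. With litter added, no member was called, and 14 genes in all were.

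Litters of the same genotype were compared next, with sex in the model. No member was called (background 0.147%), nor was any by DESeq2, but 12 of 33 (36.4%) had an unadjusted p below 0.05, against 5.49% of all genes. The largest F values were those of *Aldoc* (8.28, edgeR FDR = 0.219), *Aldoa* (5.92, edgeR FDR = 0.495), *Gpi1*, the glucose phosphate isomerase (5.75, edgeR FDR = 0.501), *Eno1b* (4.60, edgeR FDR = 0.707) and *Ankrd37*, a HIF target (4.02, edgeR FDR = 0.763). *Aldoc* was at 4.44 and 3.37 CPM in the wild-type embryos of litters 801 and 803, both males, and at 2.01 and 1.37 CPM in those of litters 2597 and 2598, both females. Within wild-type and within *Kat6a-/-Kat6b+/+* embryos these litters also differ in sex, so the 2 cannot be told apart there. Leaving out *Kat6a+/+Tg(Kat6b)* replicate 1 gave 6 calls in the litter test.

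A split within *Kat6a-/-Tg(Kat6b)* embryos was chosen after its values were seen. *Ldhb* was at 69.5 and 69.3 CPM in the males, replicates 1 and 3, and at 43.4 and 45.4 CPM in the females, replicates 2 and 4. All other embryos were between 63.8 and 80.2 CPM, so the females stood below the whole series. *Slc16a1* was at 205 and 198 CPM in those females and at 159 and 158 CPM in the males, and *Slc2a1*, the general glucose carrier, at 484 and 493 CPM against 396 and 410 CPM. The litters do not follow this split, since replicates 1, 2 and 3 came from litter 483.

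In a fit of genotype by sex, *Ldhb* was lower in these females by a log2 difference of -0.64 (SE 0.08, edgeR FDR = 0.00047) and *Slc16a1* was higher by 0.35 (SE 0.06, edgeR FDR = 0.0139). They were 2 of 33 members called, with 0.574% of all genes called. The female minus male difference of *Ldhb* departed from the mean of the other 3 genotypes by -0.62 (SE 0.10, edgeR FDR = 0.00968). No other member was called there (background 0.0893%), with *Slc16a1* at 0.36 (edgeR FDR = 0.0747). Because the split was picked from these values, these tests restate it and are no independent evidence, and with 2 embryos of each sex, sex and individual embryos cannot be told apart. Summed neural markers were 780 and 778 CPM in the females and 903 and 926 CPM in the males, and their part was not tested.

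**Figure D4:**
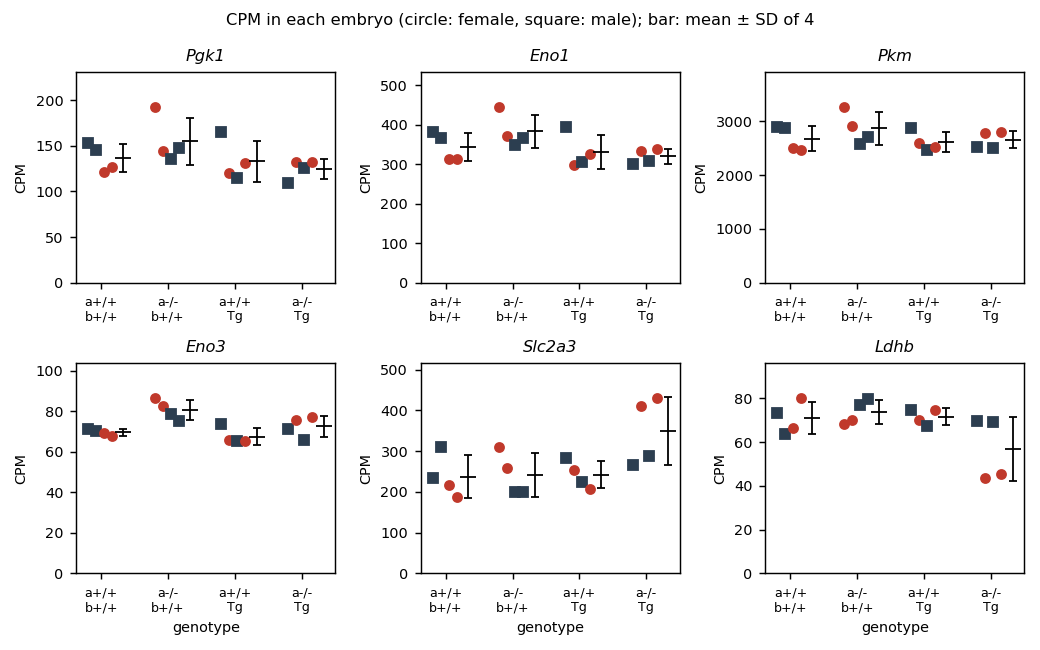
CPM of 6 members in each embryo, on axes that start at 0, by genotype (a, *Kat6a*; b, *Kat6b*; Tg, *Tg(Kat6b)*), with circles for females, squares for males and the mean ± SD of 4 embryos beside them. *Eno3* of *Kat6a-/-Kat6b+/+* lies above all wild-type embryos, and *Slc2a3* is high and *Ldhb* low in the 2 *Kat6a-/-Tg(Kat6b)* females.

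The remaining members were called by edgeR in no genotype comparison, and DESeq2 called *Tpi1* in *Kat6a-/-Tg(Kat6b)* against *Kat6a-/-Kat6b+/+* embryos. *Egln1* and *Egln3*, the prolyl hydroxylases that read oxygen, spanned 101 to 121 and 9.68 to 13.8 CPM over the 16 embryos. *Hif1a* spanned 234 to 267 CPM. *Vegfa*, the angiogenic ligand, spanned 73.9 to 95.2 CPM, and *P4ha1* and *P4ha2*, subunits of the collagen prolyl hydroxylases, 84.6 to 113 and 18.2 to 24.2 CPM. *Bnip3*, a mitophagy receptor, spanned 44.5 to 82.6 CPM, *Pdk1* 82.1 to 156 CPM and *Ankrd37* 4.12 to 7.14 CPM. Each of these 9 had its highest value in *Kat6a-/-Kat6b+/+* replicate 1, apart from *Egln3*, *Hif1a* and *Vegfa*. *Slc16a3*, the lactate exporter of glycolytic cells, spanned 127 to 247 CPM, *Pfkm* 65.0 to 71.9 CPM and *Pfkp* 15.9 to 20.5 CPM. *Tpi1* spanned 513 to 780 CPM, *Gapdh* 56.8 to 83.4 CPM and *Eno2* 3.24 to 5.73 CPM.

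Genes that feed on or regulate the pathway showed few calls. The share of all genes called was 7.14% for *Kat6a-/-Tg(Kat6b)* against *Kat6a-/-Kat6b+/+*, 3.41% against *Kat6a+/+Tg(Kat6b)* and 0.67% against wild type, and nothing particular to any list below was tested. Of 19 tested further glycolytic enzymes, carriers and regulators, none was called by edgeR in any comparison, and between 0 and 4 had an unadjusted p below 0.05. The most abundant were *Bsg*, the chaperone of the lactate carriers, at 267 to 334 CPM, and *Gpd2*, the mitochondrial glycerol phosphate dehydrogenase, at 56.3 to 76.7 CPM. Of 7 genes of the pentose phosphate pathway, *Tkt* and *Pgls* fell in *Kat6a-/-Tg(Kat6b)* against *Kat6a-/-Kat6b+/+* embryos (log2 -0.14 and -0.16, edgeR FDR = 0.0273 and 0.0222). Of 29 genes of pyruvate oxidation and the citric acid cycle, *Mpc2*, a subunit of the mitochondrial pyruvate carrier, fell there by 0.33 (edgeR FDR = 0.0338). Of 38 further HIF response genes, *Mif* fell by 0.32 (edgeR FDR = 0.009) and *Mxi1* rose by 0.21 (edgeR FDR = 0.0402) in that comparison. Both 1 of 29 and 2 of 38 lie below the share of all genes called there. *Epas1*, the second HIF alpha subunit and 1 of 7 genes of the HIF system tested, rose by 0.46 (SE 0.08, edgeR FDR = 0.00306) in *Kat6a-/-Tg(Kat6b)* against *Kat6a+/+Tg(Kat6b)* embryos, where *Tfrc*, the transferrin receptor, rose by 0.24 (edgeR FDR = 0.0327). Endothelial markers moved in the same comparison, with 6 of 6 above 0, *Cdh5* and *Tie1* called higher (0.23 and 0.22) and summed levels of 353 to 389 CPM against 317 to 347 CPM. Of 6 tested macrophage markers, *Mrc1* and *Csf1r* were called higher (1.15 and 1.07), and the 7 listed summed to 4.89 to 9.64 CPM against 3.14 to 4.99 CPM. Other tissue markers moved too. Of 8 neural markers 7 lay below 0 and 2 were called lower, and of 7 somite markers 7 lay below 0 and 1 was called lower. All 10 erythroid markers lay below 0 and all 6 tested yolk sac and liver bud markers above 0, with none called. Of 2 tested trophoblast and decidua markers 1 was called higher, and heart markers were split, with 5 above 0 and 4 below. The part of these cell types in the values of *Epas1*, which endothelium is known to express, was not tested. Of 13 genes of the amino acid stress response, *Slc7a11* fell by 0.55 (edgeR FDR = 0.00585) and *Sesn2* rose by 0.27 (edgeR FDR = 0.0271) in *Kat6a-/-Tg(Kat6b)* against *Kat6a-/-Kat6b+/+* embryos. *Trib3* of the same list rose by 1.16 (edgeR FDR = 0.0369) in *Kat6a-/-Tg(Kat6b)* against *Kat6a+/+Kat6b+/+* embryos and by 1.15 (edgeR FDR = 0.0236) against *Kat6a+/+Tg(Kat6b)* embryos. Of 11 immediate early genes tested, *Jun*, *Egr1* and *Ier2* were called lower in *Kat6a-/-Tg(Kat6b)* against *Kat6a-/-Kat6b+/+* embryos, by 0.16, 0.41 and 0.19 (lowest edgeR FDR 0.0193). Those 2 groups also differ in litter. In the test of litters of the same genotype, 2 of the 11 were called (lowest edgeR FDR 0.017), against 0.147% of all genes.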

How the data were processed

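Libraries were made with TruSeq RNA v2, a kit that does not mark strand, and aligned by the authors with Rsubread. The submitters' processing notes name bcl2fastq, featureCounts and mm39. The annotation and strand setting used for counting were not given in the sources used here. The authors deposited 1 table per embryo of raw counts per gene, with gene lengths and without normalization. Members and all gene lists were chosen with earlier results of these data known.

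Genes were kept by filterByExpr (minimum count 10, minimum total 15), scaled by TMM (factors 0.985 to 1.02) and tested in R 4.3.3 with edgeR 4.0.16 (glmQLFit with robust estimation, glmQLFTest) on all 16 embryos with genotype and 2 surrogate variables. These came from sva 3.50.0 (20 permutations, at most 4 allowed) on log2 CPM with a prior count of 2 and limma 3.58.1. P-values were adjusted over all tested genes by the Benjamini-Hochberg method. Sex and litter were tested with genotype in the model and no surrogate variables. The first surrogate variable had r = 0.993 with sex over 16 embryos. RPKM used the deposited lengths. Embryos are separate animals, and the chi-square per degree of freedom between embryos of a genotype was 1.83 to 15.8, above sampling noise. The number of counts limits precision mainly for *Aldoc*, *Eno2* and *Ankrd37*.

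Given in full were members called in any comparison and the 5 with the largest log2 fold change (largest F for litter) in each, the 5 highest and 3 lowest pairs by Pearson r, and, of other lists, up to 4 called genes or otherwise the 2 most abundant. Alternatives were DESeq2 1.42.0 (adjusted p left as NA where it gives none), its size factors in edgeR, total counts as library sizes, no filter, no or 1 surrogate variable, sex, a replicate block, a litter block, and leaving out each embryo. The fit without 3 embryos and the sex difference within *Kat6a-/-Tg(Kat6b)* embryos were added after seeing the data. The edgeR and correlation steps were tested on simulated data. Positions and overlaps are from GENCODE vM39 on GRCm39, and promoters from RefSeq on GRCm38.p6, which were not mixed. *Slc2a3* and *Eno1b* had no promoter entry.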

Additional observations from a re-analysis of the deposited data

Results flagged for a closer look

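Among 132 combinations of member and genotype, 5 had 1 embryo far from the other 3, all on the high side. Chance flags about 1 in 20 of such combinations, so 5 of 132 is no excess over chance. In *Kat6a-/-Kat6b+/+* replicate 1 they were *Hk2* at 158 CPM (others 125 to 129), *Bnip3* at 82.6 CPM (others 50.2 to 55.4) and *Ddit4* at 74.6 CPM (others 45.5 to 48.8). *Eno3* was at 73.7 CPM in *Kat6a+/+Tg(Kat6b)* replicate 1 (others 65.3 to 65.8). *Hif1a* was at 256 CPM in *Kat6a+/+Kat6b+/+* replicate 2 (others 248 to 249).

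The values of *Ldhb* in female and male *Kat6a-/-Tg(Kat6b)* embryos stood apart from those of the other genotypes. Their female minus male difference departed by -0.621 (log2) from the mean of the other 3 genotypes (edgeR FDR = 0.00968). The split was picked from these values, so the test restates them, and with 2 embryos of each sex a difference between the sexes and one between single embryos cannot be told apart.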

How the results depend on the processing

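Over 207 alternatives for the counts of called members and the median correlation, 174 left the result the same, and over 902 alternatives for single genes 819 did, 67 lost and 14 gained the threshold and 2 reversed. The reversed values were *Ddit4* in *Kat6a+/+Tg(Kat6b)* against *Kat6a+/+Kat6b+/+* embryos with a litter block (0.0739) and *Eno2* by sex with litter added (-0.125). Medians over the members were not among these alternatives. For *Kat6a-/-Tg(Kat6b)* embryos the median changed sign without surrogate variables, against wild type and against *Kat6a+/+Tg(Kat6b)* embryos. In *Kat6a-/-Kat6b+/+* against *Kat6a+/+Kat6b+/+* embryos the 1 call became 0 with no or 1 surrogate variable, with sex or a litter block instead, and with 3 embryos left out, and ranged from 0 to 3 with single embryos left out (3 without *Kat6a+/+Kat6b+/+* replicate 1, 0 without its replicate 2 or *Kat6a-/-Kat6b+/+* replicate 1, 2 or 3). In *Kat6a-/-Tg(Kat6b)* against *Kat6a-/-Kat6b+/+* embryos the 6 calls became 0 with no or 1 surrogate variable, with sex, and with 3 embryos left out, 3 without the filter and 10 with DESeq2, and ranged from 2 to 9 with single embryos left out (2 without *Kat6a-/-Kat6b+/+* replicate 1, 3 without *Kat6a-/-Tg(Kat6b)* replicate 3 or 4, 9 without *Kat6a+/+Kat6b+/+* replicate 2). All-gene calls there were 1119, and 614, 738, 1315 and 64 with no surrogate variable, no filter, DESeq2 and 3 embryos left out. In *Kat6a-/-Tg(Kat6b)* against *Kat6a+/+Kat6b+/+* embryos 0 calls became 1 without the filter and with DESeq2 (0 to 1 with single embryos left out), and in the interaction 1 with DESeq2. With single embryos left out, calls ranged from 0 to 2 against *Kat6a+/+Tg(Kat6b)* embryos, and from 0 to 6 for litter, and the median correlation from 0.457 to 0.552. The causes were not tested. Replicate numbers did not pair the embryos: same-numbered embryos had r of -0.255 to 0.215, with 10 of 24 over 0.1. With a replicate block and no surrogate variables, members called were 0 in both comparisons that had calls, as they were without surrogate variables and without the block.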
